A study of Arabidopsis thaliana with 36 samples.

Results

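OCT1 (AT1G73220) is a gene of the organic cation/carnitine transporter family of Arabidopsis thaliana, read here by 1 probe set of the 22810 on the ATH1 array. It was chosen by its measured intensities over all 12 groups, which were known beforehand, so its levels and differences are given as a description, without p-values. It is 1 gene of the 13350 that the probe table pairs with a probe set of their own. The gene table used here, of the assembly TAIR10.1, places it on chromosome 1 and lists it as protein coding. The value table names no genome build, so positions are not given.

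Organic cation/carnitine transporters are membrane proteins that move small charged molecules such as carnitine, the carrier of acyl groups between cell compartments. In Arabidopsis the OCT1 protein is known from the plasma membrane, and its promoter is active in vascular tissue. OCT4 and OCT5, relatives in the same family, are known from the membrane of the vacuole.

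The series concerns dormancy and secondary growth, the thickening of the hypocotyl by the vascular cambium, which forms xylem on its inner side. There were 12 groups of 3 arrays, with RNA pooled from 200 to 400 plants on an array. The xylem and cork groups came from Col-0 wild type, a MYB61 knockout and a MYB50 knockout, both knockout lines lacking a MYB transcription factor. Hypocotyls were sampled from wild-type Ler, from the Ler mutants aba1, which makes little abscisic acid (ABA), and abi1, which responds poorly to it, from wild-type Col-0, and from max4 (deficient in strigolactone) and axr1 (resistant to auxin). For the MYB knockouts, max4 and axr1 the labels give the mutant in place of an ecotype, and Col-0 was taken as their wild type. All plants were grown on compost in continuous light; the alleles, plant age, the makeup of the cork samples, and whether the pools came from separate growths are not given in the labels. P-values below therefore measure the spread between these RNA samples. Where tissue of pooled plants is read in bulk, fewer cells of a type and less RNA per cell cannot be told apart.

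Values are scaled probe-set intensities, with array medians of 35.1 to 44.9 and with 29.6% to 37.1% of values under 16 per array, a level taken here as near the floor. Each of the 36 arrays correlated best with an array of its own group. The number of arrays, 3 in a group, limits the precision. The samples were set against marker lists, of which few genes had a named probe set. Of 27 xylem genes 3 could be tested, and limma called 2 of them higher in Col-0 xylem than in Col-0 cork, where 19.8% of all 15922 tested probe sets were called higher; the list's median log2 difference was 0.78, against 0.02 over all tested. GUT2 (IRX10), an enzyme of xylan synthesis, averaged 113 ± 46.3 in xylem against 48.3 ± 6.11 in cork (SD, n = 3; limma log2 difference 0.95, SE 0.16, adjusted p = 9.3e-06), and IRX15 passed more narrowly (log2 0.78, SE 0.31, limma adjusted p = 0.045), with values that overlapped. Without Col-0 xylem replicate 3 the list's median was 0.19 and IRX15 was at log2 0.11 (limma adjusted p = 0.74), while GUT2 stayed called (log2 0.67, limma adjusted p = 0.00021). Without any one of the Col-0 cork arrays, limma called 1 of the 3 higher. Of 10 phloem genes 3 could be tested, and limma called 2 lower in Col-0 xylem than in cork. It called 20.4% of all tested probe sets lower there. The 2 phloem genes were CLE41, a phloem-made peptide (limma log2 -3.08, adjusted p = 3.5e-20), and SWEET11 (limma log2 -1.12, adjusted p = 7.7e-09). OPS was not called (limma log2 -0.22, adjusted p = 0.19). FACT, the only 1 of 17 cork genes tested, was lower (limma log2 -1.93, adjusted p = 8.2e-15). So was PSAE-1, the only 1 of 7 photosynthetic genes tested (limma log2 -1.59). Of 10 cambium genes 2 could be tested, with 1 called higher and 1 lower. The 6 genes that the mutations target had no named probe set, so they were not checked here.

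In Col-0, OCT1 was brightest in xylem and dimmest in cork, with the whole hypocotyl between them. In Col-0 xylem its intensity was 1664.5, 1673.2 and 1611.1 on the 3 arrays, a mean of 1650 ± 33.6 (SD, n = 3). In Col-0 cork it was 27.2, 17.7 and 22.9, a mean of 22.6 ± 4.76. The xylem arrays lay within a narrow band far above all cork arrays, and the mean was 73.0-fold higher in xylem.

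**Figure D1:**
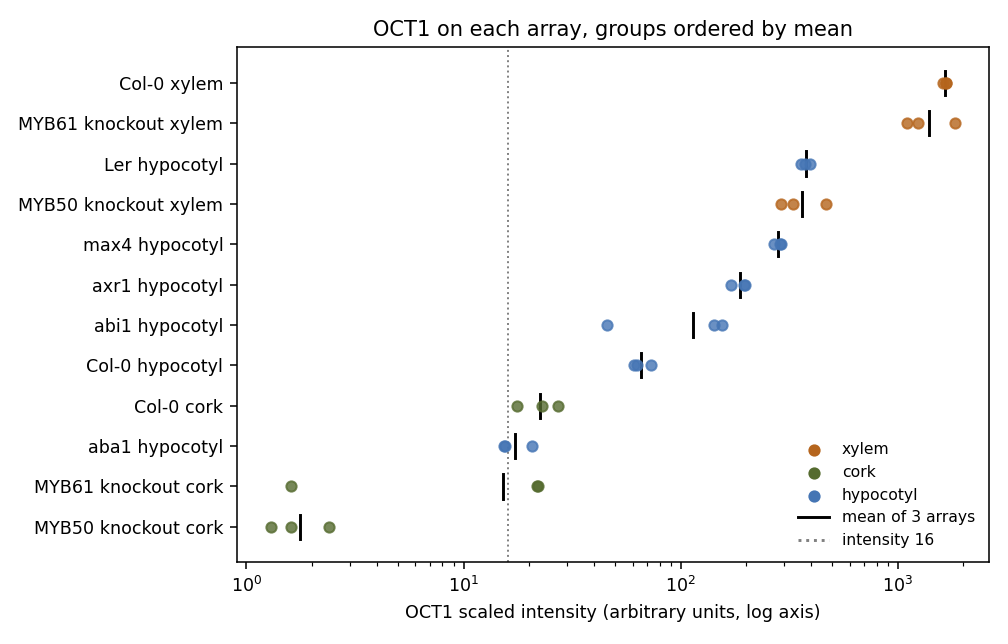
OCT1 scaled intensity (log axis) on each of the 36 arrays, with the 12 groups ordered by their mean. Points are arrays, colours are tissues, black ticks are means of 3 arrays, and the dotted line marks an intensity of 16. Col-0 and MYB61 knockout xylem lie at 1099.2 or above, and all cork arrays lie at 27.2 or below.

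Ordered by mean, the groups ran from Col-0 xylem (1650) through MYB61 knockout xylem (1391), Ler hypocotyl (376), MYB50 knockout xylem (362), max4 (280), axr1 (188), abi1 (114) and Col-0 hypocotyl (65.6) to Col-0 cork (22.6), aba1 (17.2), MYB61 knockout cork (15.2) and MYB50 knockout cork (1.77). Neighbours in this order were separated, with no overlap of their arrays, at 4 steps. These lay between MYB61 knockout xylem and Ler hypocotyl (3.70-fold), max4 and axr1 (1.5-fold), axr1 and abi1 (1.64-fold), and Col-0 hypocotyl and Col-0 cork (2.90-fold). All other neighbours overlapped, among them Col-0 and MYB61 knockout xylem, and Ler hypocotyl and MYB50 knockout xylem. On the scale of log2 of the intensity plus 16, on which all differences below are given with the standard error (SE) of the limma fit, the group means of OCT1 spanned 6.55, a span that 2 of the 15922 tested probe sets exceeded and none of the other 8854 tested probe sets with 1 gene reached.

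Each genotype showed the tissue difference. In the MYB61 knockout, OCT1 was at 1099.2, 1243.0 and 1830.8 in xylem and at 1.6, 21.9 and 22.0 in cork. The lowest xylem array was far above the highest cork array, and the xylem arrays were more spread than in Col-0. In the MYB50 knockout, OCT1 was at 288.4, 468.0 and 328.7 in xylem and at 1.3, 2.4 and 1.6 in cork, so that both tissues were lower than in Col-0 and the tissues still did not overlap. The log2 differences between xylem and cork were 5.44 (SE 0.26) for Col-0, 5.55 (SE 0.26) for the MYB61 knockout and 4.38 (SE 0.26) for the MYB50 knockout. Their order depended on the constant added before the log (the pseudocount). With 1 added they were 6.15, 6.93 and 7.02 for the same genotypes, largest for the MYB50 knockout. With 64 added they were 4.31, 4.18 and 2.67. Which genotype had the largest tissue difference is therefore not settled here.

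Where arrays of the dimmer group read under 16, folds are lower bounds, with each such array set to 16. OCT1 was at least 69.7-fold higher in xylem than in cork of the MYB61 knockout and at least 22.6-fold higher in the MYB50 knockout. By size, its difference was at place 2 among higher probe sets for Col-0, place 1 for the MYB61 knockout and place 10 for the MYB50 knockout, of 15922 tested. These places hold with 16 added, and places with other constants were not computed. Xylem arrays that did not overlap cork and were higher made up 25.6% of the tested probe sets for Col-0, 19.6% for the MYB61 knockout and 23.6% for the MYB50 knockout, so the separation alone was common and the size was not. MYB61 knockout cork replicate 1 (1.6) stood apart from the other MYB61 knockout cork arrays, and without it the log2 difference was 5.18.

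The 3' to 5' signal ratio of actin, a measure of RNA quality, was 1.07 to 1.35 in Col-0 xylem and 1.27 to 1.73 in Col-0 cork, and in the MYB61 knockout 1.16 to 1.27 in xylem and 1.17 to 1.29 in cork. In the MYB50 knockout the ratio was 1.3 to 1.42 in xylem and 1.52 to 2.11 in cork, without overlap. The part of the ratio in the tissue differences was not tested. The scanner background was 85.4 to 124 in Col-0 xylem and 69.4 to 75.5 in Col-0 cork, so background and tissue cannot be told apart within Col-0. With the background as a covariate the Col-0 log2 difference was 5.51. In the MYB61 and MYB50 knockouts the background ranges of xylem and cork overlapped.

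**Figure D2:**
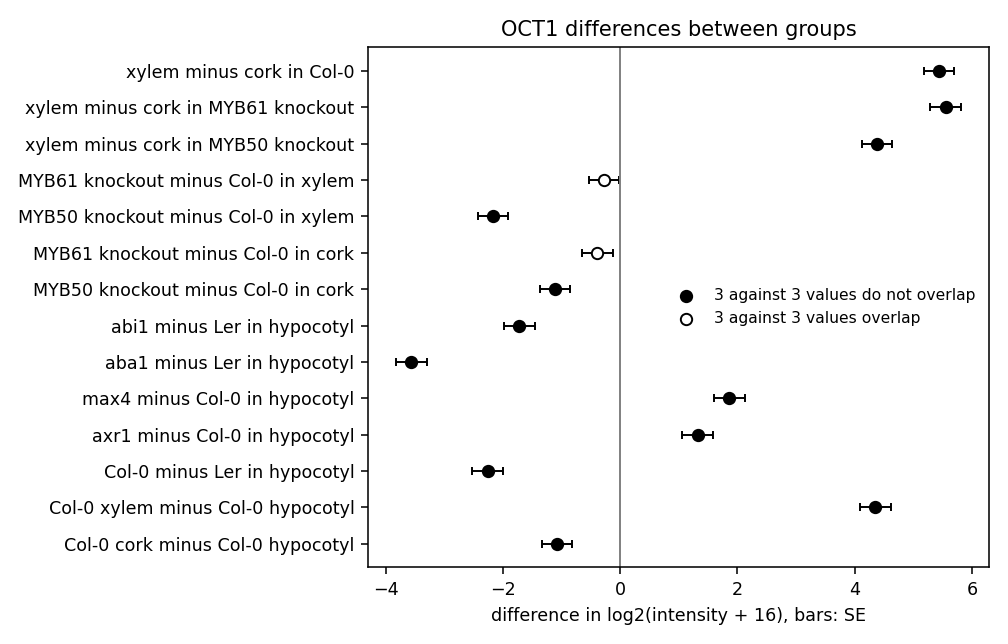
Difference of OCT1 between groups in each of the 14 comparisons, in log2 of the intensity plus 16. Points are limma estimates and bars are SE, which is 0.26 throughout because 1 spread is shared by all 12 groups. Fitted to only the arrays compared, the SE was 0.09 for aba1 minus Ler and 0.33 for abi1 minus Ler. Open points mark comparisons in which the 3 values of both groups overlap. The xylem minus cork differences lie between 4.38 and 5.55, and aba1 minus Ler is the lowest at -3.56.

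The knockouts were compared with Col-0 within each tissue, and both share the Col-0 arrays. In xylem, OCT1 stood at 362 ± 94.2 in the MYB50 knockout against 1650 ± 33.6 in Col-0 (SD, n = 3), 4.56-fold lower. The highest MYB50 knockout array (468.0) was far below the lowest Col-0 array (1611.1). The log2 difference was -2.17 (SE 0.26), at place 24 by size among lower probe sets, and 28.8% of tested probe sets were lower without overlap. In the MYB61 knockout the mean was 1391 ± 388, the arrays overlapped those of Col-0, and the log2 difference was -0.28 (SE 0.26), which was about its own standard error.

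The xylem samples of the MYB50 knockout also differed in wall genes, in the other direction. Of the 3 xylan genes tested, limma called 3 higher than in Col-0 xylem, where 20.4% of tested probe sets were called higher, with a median log2 difference of 2.63 against -0.02 over all tested. GUT2 was at 525 ± 89.3 against 113 ± 46.3, and IRX15, needed for xylan of normal length, at 360 ± 86.2 against 39.4 ± 47.8 (SD, n = 3). Both of the ABA-responsive genes tested were higher too, the dehydrin genes COR47 (280 ± 105 against 101 ± 25.6; limma log2 1.29, SE 0.20, adjusted p = 5.7e-06) and LTI30 (344 ± 146 against 101 ± 97.8; limma log2 1.84, SE 0.39, adjusted p = 0.00029, with values that overlapped). The actin ratio was 1.3 to 1.42 in MYB50 knockout xylem and 1.07 to 1.35 in Col-0 xylem, and its part in these differences was not tested.

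In cork, OCT1 was at 1.77 ± 0.569 in the MYB50 knockout and 22.6 ± 4.76 in Col-0 (SD, n = 3). The arrays did not overlap, as was so for 26.0% of tested probe sets on the lower side, but both groups were dim and no fold is given. The log2 difference was -1.11 (SE 0.26), and it ranged from -3.09 to -0.40 with pseudocounts of 1 and 64, since values this low depend on the constant added. In MYB61 knockout cork the arrays overlapped those of Col-0, with a log2 difference of -0.39 (SE 0.26) that was -0.02 without MYB61 knockout cork replicate 1. The array labelled a repeat, MYB50 knockout cork replicate 1, read 1.3, and without it the log2 difference was -1.09.

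In hypocotyls of the Ler background, OCT1 was lower in both ABA mutants, and most in aba1. Ler hypocotyls had OCT1 at 359.2, 395.9 and 371.8. In aba1 it was at 15.5, 15.4 and 20.6, close to the level of cork. The aba1 mean of 17.2 ± 2.97 compared with 376 ± 18.6 in Ler (SD, n = 3), at least 21.4-fold lower, as 2 of the aba1 arrays read under 16. The log2 difference was -3.56 (SE 0.26), and -4.38 and -2.44 with pseudocounts of 1 and 64. By size this was at place 1 among the lower probe sets of aba1, of 15922 tested. Probe sets lower in aba1 without overlap made up 25.4%.

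In abi1, OCT1 was at 141.8, 45.6 and 155.3. All 3 arrays were below the lowest Ler array, and replicate 2 was well below the other abi1 arrays. The mean of 114 ± 59.8 was 3.29-fold under Ler, with a log2 difference of -1.72 (SE 0.26) at place 11 by size, and 15.4% of tested probe sets were lower without overlap. Without abi1 hypocotyl replicate 2 the log2 difference was -1.25. All 3 abi1 arrays lay above the highest aba1 array (20.6). The scanner background was 115 to 132 on Ler arrays and 81.8 to 111 on abi1 arrays, so background and genotype cannot be told apart here. With the background as a covariate the abi1 log2 difference was -1.78. The aba1 background range (97.1 to 126) overlapped that of Ler.

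Of 22 ABA-responsive genes listed, 3 had a named probe set and 2 could be tested. LTI30 fell from 408 ± 182 in Ler to 137 ± 19.1 in abi1 (SD, n = 3; limma log2 difference -1.37, SE 0.39, adjusted p = 0.021, and 0.073 to 0.13 without Ler hypocotyl replicate 2 or 3 or abi1 hypocotyl replicate 3) and to 74.5 ± 10.6 in aba1 (limma log2 difference -2.13, SE 0.39, adjusted p = 0.0001). COR47 fell in aba1 (684 ± 215 to 364 ± 44.1; limma log2 -0.83, SE 0.20, adjusted p = 0.0024) and stood at 520 ± 33.1 in abi1 (limma log2 -0.33, SE 0.20, adjusted p = 0.34, and 0.044 without Ler hypocotyl replicate 1). The list's median log2 difference was -0.85 in abi1 and -1.48 in aba1, against -0.01 and -0.02 over all tested, and limma called 5.77% and 15.3% of all tested probe sets lower. The actin ratio was 1.25 to 1.29 in Ler, 1.49 to 1.85 in abi1 and 1.36 to 1.45 in aba1, and its part in these differences was not tested.

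In hypocotyls compared with Col-0, OCT1 was higher in max4 and in axr1, which share the Col-0 arrays. Col-0 hypocotyls had OCT1 at 61.2, 72.9 and 62.7. In max4 it was at 267.9, 288.5 and 285.1, and in axr1 at 196.7, 195.4 and 170.7. Every mutant array was above every Col-0 array, and every max4 array was above every axr1 array.

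The mean of max4 (280 ± 11) was 4.28-fold and that of axr1 (188 ± 14.7) 2.86-fold over that of Col-0 (65.6 ± 6.37; SD, n = 3). The log2 differences were 1.86 (SE 0.26) and 1.32 (SE 0.26). They stood at places 292 and 357 by size among higher probe sets, and 26.0% and 22.7% of tested probe sets were higher without overlap. Differences as large in this direction made up 1.83% of tested probe sets in max4 and 2.24% in axr1. Both OCT1 differences were smaller than those between xylem and cork.

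The wild types also differed. OCT1 was 5.73-fold lower in Col-0 hypocotyls than in Ler hypocotyls, with a log2 difference of -2.26 (SE 0.26) at place 92, and 33.0% of tested probe sets were lower without overlap. The scanner background was 115 to 132 on Ler arrays and 64.6 to 89.8 on Col-0 arrays. With the background as a covariate the log2 difference was -2.38, but the ranges did not overlap, so background and wild type cannot be told apart here. The actin ratio was 1.25 to 1.29 in Ler and 1.44 to 1.72 in Col-0 hypocotyls, also without overlap, and its part was not tested.

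Whole hypocotyls of Col-0 were nearer to cork than to xylem in OCT1. The mean of 65.6 was 25.1-fold under Col-0 xylem (log2 difference of xylem over hypocotyl 4.35, SE 0.26, place 1 by size) and 2.90-fold over Col-0 cork (log2 difference of cork from hypocotyl -1.08, SE 0.26, place 332). Without overlap, 30.8% of tested probe sets were higher in xylem than in the hypocotyl and 25.8% lower in cork. On a linear scale from cork (0%) to xylem (100%), a measure added after the data were seen, the OCT1 level of the hypocotyl lay at 2.64%. For the 87 other probe sets that were called and at least 8-fold higher in Col-0 xylem than in cork, the median position was 26.4%, with quartiles of 15.1% and 48.0%. Of these, 3 lay at or below the position of OCT1. Of the 3 xylem genes tested, limma called 0 higher and 2 lower in Col-0 xylem than in the hypocotyl. These were IRX15 (log2 -1.12, limma adjusted p = 0.0029) and IRX15-L (log2 -0.54, limma adjusted p = 0.022), both with overlapping values. Limma called 26.9% of all tested probe sets lower there. Whether the hypocotyl and tissue samples came from plants of the same age is not given in the labels. The actin ratio was 1.44 to 1.72 in Col-0 hypocotyls, without overlap with Col-0 xylem (1.07 to 1.35) but overlapping Col-0 cork (1.27 to 1.73). Its part in these differences was not tested.

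**Figure D3:**
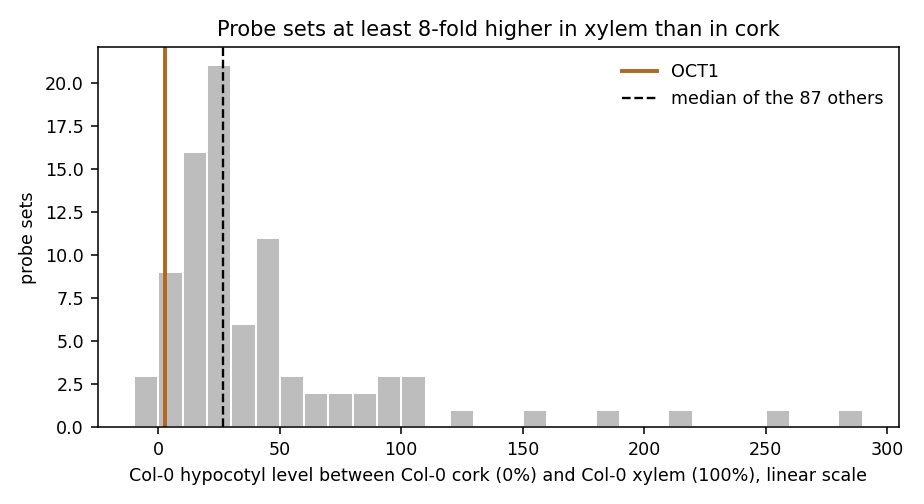
Position of the Col-0 hypocotyl mean between the Col-0 cork mean (0%) and the Col-0 xylem mean (100%), in intensity on a linear scale, for the 87 probe sets other than OCT1 that were called and at least 8-fold higher in xylem. Bars count probe sets in steps of 10%, the solid line is OCT1 (2.64%) and the dashed line is the median of the others (26.4%). OCT1 lies near the lower end.

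OCT4 and OCT5 were the only other family members with a named probe set, of OCT2 to OCT6 and BOU, a protein of the mitochondrial carrier family. Neither showed the tissue pattern of OCT1. OCT4 was at 53.3, 62.1 and 43.6 in Col-0 xylem and at 42.6, 44.9 and 62.8 in Col-0 cork, values that overlapped (limma log2 difference 0.07, SE 0.13, adjusted p = 0.73). OCT5 was at 13.7, 11.8 and 11.9 in Col-0 xylem, near the floor, and at 31.2, 40.5 and 27.5 in cork, with no overlap. It was lower in xylem in each genotype (limma log2 difference -0.78 for Col-0, -0.80 for the MYB61 knockout and -0.48 for the MYB50 knockout, SE 0.12 each, adjusted p = 6.2e-06, 4.4e-06 and 0.0022). Limma called 20.4%, 18.6% and 21.7% of all tested probe sets lower in xylem of these genotypes.

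In max4 and axr1, OCT4 and OCT5 moved down where OCT1 was higher. OCT4 fell from 112 ± 13.4 in Col-0 hypocotyls to 50.6 ± 0.850 in max4 and 34 ± 4.30 in axr1 (SD, n = 3; limma log2 difference -0.93 and -1.35, SE 0.13 each, adjusted p = 6.6e-07 and 1.5e-09). OCT5 fell from 44.8 ± 6.62 to 16.9 ± 0.929 and 17.7 ± 1.12 (limma log2 difference -0.88 and -0.85, SE 0.12 each, adjusted p = 7.1e-07 and 2.6e-06). Limma called 23.7% of all tested probe sets lower in max4 and 19.2% in axr1.

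In the ABA mutants the relatives moved less. OCT4 fell from 49.9 ± 0.709 in Ler to 30.5 ± 1.86 in aba1 (SD, n = 3; limma log2 difference -0.50, SE 0.13, adjusted p = 0.0043) and was at 46.0 ± 8.84 in abi1 (limma log2 difference -0.10, SE 0.13, adjusted p = 0.73). OCT5 went from 36.5 ± 8.99 in Ler to 23.3 ± 1.59 in abi1 (limma log2 difference -0.41, SE 0.12, adjusted p = 0.032), a call that was lost without Ler hypocotyl replicate 2 or 3 or abi1 hypocotyl replicate 1 or 2. In aba1 OCT5 was at 26.1 ± 3.74 (limma log2 difference -0.31, SE 0.12, adjusted p = 0.066).

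In xylem of the MYB50 knockout OCT4 was lower, as OCT1 was, at 34.4 ± 1.39 against 53.0 ± 9.25 (SD, n = 3; limma log2 difference -0.44, SE 0.13, adjusted p = 0.0063, and adjusted p = 0.053 without Col-0 xylem replicate 2). Limma called 24.2% of all tested probe sets lower there. Both genes were also lower in Col-0 xylem than in Col-0 hypocotyls (limma log2 difference -0.89 for OCT4 and -1.09 for OCT5, adjusted p = 9.7e-07 and 1e-08) and in Col-0 cork than in hypocotyls (limma log2 difference -0.96 and -0.31, adjusted p = 6e-07 and 0.041, the latter with overlapping values and adjusted p = 0.1 to 0.19 without Col-0 cork replicate 1 or 3 or Col-0 hypocotyl replicate 2 or 3), where 26.9% and 21.8% of tested probe sets were called lower. Over the 14 comparisons limma called OCT4 higher in 1 and lower in 6, and OCT5 higher in 0 and lower in 8. Several of these comparisons share the Col-0 hypocotyl arrays, where OCT4 was brightest, so the calls are not independent of each other. Limma called from 299 (MYB61 knockout minus Col-0 in xylem) to 9206 (Col-0 minus Ler in hypocotyl) of all 15922 tested probe sets per comparison, in either direction. The share of all probe sets called over the 14 together was not computed, so these counts are not read as a result about OCT4 and OCT5. Across the 12 group means, which share their arrays between genes, the log2 levels of OCT4 and OCT1 had r = 0.00 and those of OCT5 and OCT1 r = -0.70.

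**Figure D4:**
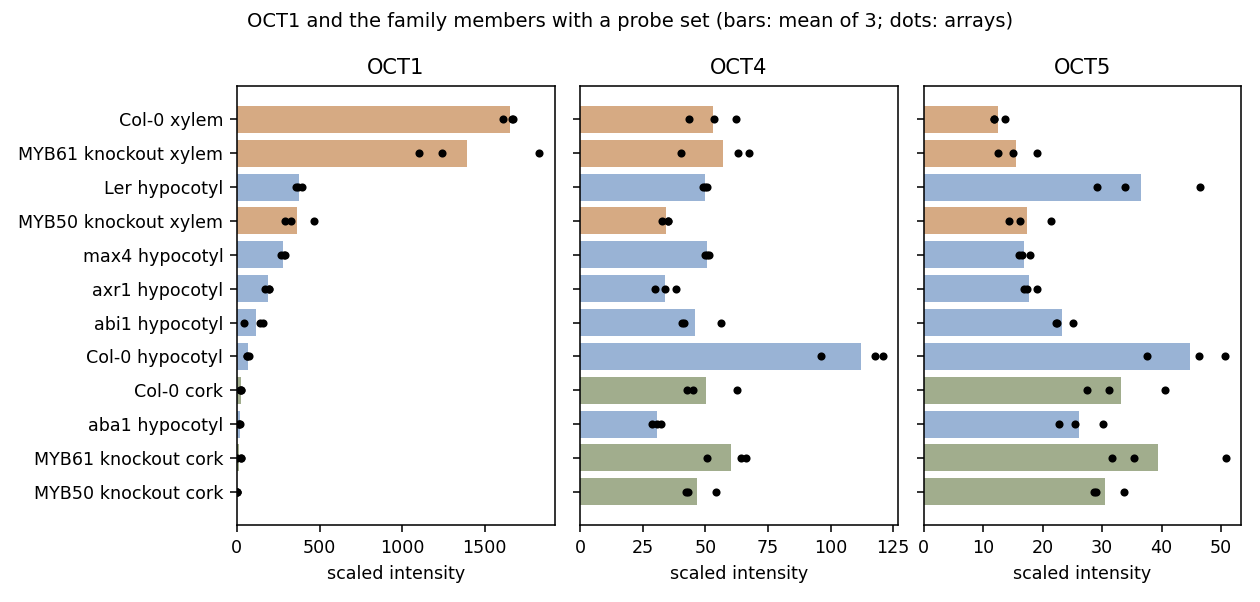
Scaled intensity of OCT1, OCT4 and OCT5 in the 12 groups, on a linear axis of its own for each gene. Bars are means of 3 arrays, dots are arrays, and the groups are in the order of the OCT1 mean. OCT4 is brightest in Col-0 hypocotyls (112), and OCT5 is at 17.3 or below in the 3 xylem groups.

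The annotated neighbours of OCT1 that had a named probe set did not share its pattern. AT1G73210, the nearest gene on the side of AT1G73200, had none. AT1G73230 is the next gene, and its annotated span overlaps that of OCT1 at the ends. It was at 466 ± 54.2 in Col-0 xylem and 478 ± 20.7 in Col-0 cork (SD, n = 3; limma log2 difference -0.04, SE 0.09, adjusted p = 0.77). Of the other neighbours with a probe set (AT1G73240 on the same side, AT1G73200 and AT1G73180 on the other), AT1G73200 was higher in Col-0 xylem, at 166 ± 14.6 against 114 ± 17.2 (limma log2 difference 0.49, SE 0.10, adjusted p = 0.00025), and AT1G73180 and AT1G73240 were not called (limma adjusted p = 0.5 and 0.081). AT1G73200 was also called higher in xylem of the MYB61 knockout (limma log2 0.29, adjusted p = 0.027), but not of the MYB50 knockout (limma log2 0.08, adjusted p = 0.56).

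In aba1 none of the 4 neighbours was called against Ler by limma (adjusted p = 0.075 to 0.51, the lowest for AT1G73240). Limma called 4317 of all 15922 tested probe sets there in either direction, so most probe sets were not called. Between the wild types the 4 neighbours were on the side opposite to OCT1. All 4 were higher in Col-0 than in Ler hypocotyls, AT1G73230 by log2 1.12 (SE 0.09, limma adjusted p = 1.4e-11) and AT1G73200 by log2 0.38 (SE 0.10, limma adjusted p = 0.002). Limma called 27.1% of all tested probe sets higher in Col-0. Across the 12 group means their r with OCT1 lay between -0.62 (AT1G73240) and 0.38 (AT1G73200).

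Of 8854 other tested probe sets with 1 gene, PHV had the pattern most like OCT1, with Pearson r = 0.96 over the 12 group means of log2 intensity, against a median r of 0.01. PHV encodes a class III HD-ZIP transcription factor of vascular and leaf patterning. Its means were 677 in Col-0 xylem and 109 in Col-0 cork, 317, 283 and 166 in Ler, abi1 and aba1 hypocotyls, and 228, 362 and 318 in Col-0, max4 and axr1 hypocotyls. The order of these groups within each set of hypocotyls was that of OCT1, over a smaller span (2.47 on the log2 scale). PHV had r = 0.97 over the 6 xylem and cork groups and r = 0.95 over the 6 hypocotyl groups. Its levels are described here for their likeness to OCT1, without a test.

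Next came GT72B1, a glycosyltransferase gene, with r = 0.95 (1792 in Col-0 xylem, 701 in Col-0 cork and 692 in aba1), AT4G22190 with r = 0.95 (552, 63.7 and 86.4 in the same groups) and AT3G10120 with r = 0.94 (729, 54.8 and 110). AT4G34140, AT2G36320, AT2G33170, AT1G05060, AT1G31050 and AT2G41480 followed, with r from 0.93 to 0.91. Over the 36 arrays the r of these 10 genes ran from 0.77 (AT4G34140) to 0.95 (PHV). Over the 6 hypocotyl groups alone it ran from 0.56 (AT1G05060) to 0.96 (AT2G36320). Ranked by Spearman's rho instead, 4 of the 10 stayed among the 10 most alike.

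**Figure D5:**
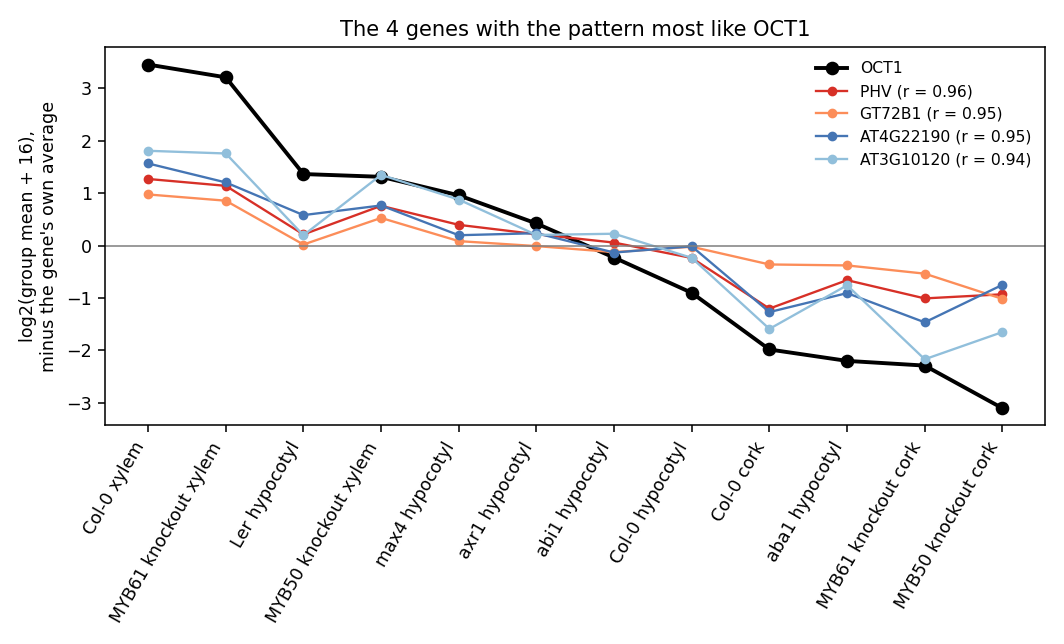
Log2 of the group mean plus 16, less the gene's own average over the 12 groups, for OCT1 and the 4 genes with the highest r. The groups on the horizontal axis are in the order of the OCT1 mean. All 5 lines run from high in Col-0 xylem to low in cork and aba1, and OCT1 has the widest span (6.55, against 2.47 for PHV).

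At the other end, AT5G47190 (r = -0.91), the metallothionein gene MT1C (r = -0.90), the plastid photosystem gene psbJ (r = -0.90), AT5G44820 (r = -0.90) and AT4G13180 (r = -0.89) were least like OCT1. MT1C was at 161 in Col-0 xylem and 847 in Col-0 cork, and at 608 in Ler and 905 in aba1 hypocotyls. AT4G13180 was at 28.5 in Col-0 xylem and 324 in Col-0 cork. The xylan genes were not close to OCT1 over the 12 groups, with r = 0.43 for GUT2, 0.29 for IRX15 and 0.17 for IRX15-L.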

How the data were processed

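Per the labels, biotin-labelled cRNA was made from total RNA with an oligo-dT primer and hybridised to 1 ATH1 array per RNA sample. The deposited values are probe-set intensities on a linear scale, which the authors had scaled so that the 2% trimmed mean of each array was 100.01; no source used here names the summary software. The 64 control probe sets and those with a mean under the 30th percentile (14.69) were left out, leaving 15922, of which 8855 had 1 gene. No further normalization was added. A model with 12 group means was fitted to log2 of the intensity plus 16 with limma 3.58.1 in R 4.3.3 (24 residual degrees of freedom, variance trend), and Benjamini-Hochberg adjusted p-values over all 15922 probe sets were held against 0.05 in 14 comparisons; "called" means past that threshold. The fit was tested on simulated data. OCT1 and the lists were chosen with earlier results of these data known. The genes named are OCT1, its family members and neighbours with a probe set, the 10 genes most and 5 least like it by r, and up to 4 members of each list with the smallest adjusted p. Deviations of same-numbered arrays had correlations of -0.156 to 0.328, with every pair over 0.1 in 0 of the 14 comparisons, so the replicate block is an alternative. Others were pseudocounts of 1 and 64, no filter or the 50th percentile, quantile normalization, array weights, the scanner background as a covariate, only the arrays compared, and each array left out. Tables were made with Python 3.11.15, pandas 2.3.3 and numpy 2.4.6. No sequence is shown, since the tables used here hold none.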

Additional observations from a re-analysis of the deposited data

Results flagged for a closer look

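The tissues were compared for the effect of each knockout, as the knockout's difference from Col-0 in xylem minus that in cork (log2, limma, adjusted over all probe sets tested). The comparison was chosen after seeing the data and was not made for OCT1, which was lower than in Col-0 in both tissues of the MYB50 knockout. For the MYB50 knockout the difference passed for 18.2% of all 15922 probe sets tested, and for the MYB61 knockout for 0.113%. In the MYB50 knockout it passed for the xylan genes GUT2 (1.74, SE 0.22, limma adjusted p = 1.1e-06), IRX15 (2.94, SE 0.44, limma adjusted p = 1.3e-05) and IRX15-L (1.61, SE 0.28, limma adjusted p = 9.8e-05), for COR47 (1.28, limma adjusted p = 0.0019) and for the sugar exporter SWEET11 (0.75, limma adjusted p = 0.0027), all more positive in xylem. The other ABA-responsive gene tested, LTI30, did not pass (0.59, SE 0.55, limma adjusted p = 0.51). It passed in the other direction for CLE41 (-1.20), FACT (-0.86), PHV (-0.78), the photosystem gene PSAE-1 (-0.92), OPS (-0.62), MOL1 (-0.41) and the OCT1 neighbour AT1G73200 (-0.41, limma adjusted p = 0.049, the highest of these 7). PHV is on the cambium list and is also the gene most like OCT1. For the MYB61 knockout it passed for COR47 (1.41, SE 0.29, limma adjusted p = 0.035). OCT4 and OCT5 did not pass for the MYB50 knockout (-0.37 and 0.30, limma adjusted p = 0.17 and 0.26).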

How the results depend on the processing

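Of 224 alternative values of the OCT1 differences, 203 moved by less than the OCT1 residual SD (0.35), 21 moved by more, and 0 changed sign. With a pseudocount of 1 the log2 differences between xylem and cork were 6.15 (Col-0), 6.93 (MYB61 knockout) and 7.02 (MYB50 knockout), those of MYB61 and MYB50 knockout cork -1.07 and -3.09, aba1 -4.38 and Col-0 cork from hypocotyl -1.51. With 64 the same tissue differences were 4.31, 4.18 and 2.67, MYB50 knockout cork -0.40, abi1 -1.37, aba1 -2.44, max4 1.41, axr1 0.96, Col-0 from Ler -1.76, and Col-0 xylem and cork from hypocotyl 3.73 and -0.58. Leaving out 1 array gave 5.18 to 5.73 for the MYB61 knockout tissues, -0.57 to -0.02 for MYB61 knockout cork and -1.99 to -1.25 for abi1. With the replicate block the Col-0 tissue difference was 5.44 and Col-0 from Ler -2.38, and the block ended 1 call of OCT4 or OCT5, that of OCT5 in Col-0 cork from hypocotyl (-0.27, limma adjusted p = 0.19).

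That OCT5 call was also lost with a pseudocount of 1 (-0.44), no filter (-0.31), array weights (-0.21) and only the arrays compared (-0.31), and ranged from -0.42 to -0.23 with 1 array left out. OCT5 in abi1 was -0.41 and not called with only the arrays compared, and -0.51 to -0.27 with 1 array left out. OCT5 in aba1 was called with quantile normalization (-0.35) and array weights (-0.44), and ranged from -0.41 to -0.18. OCT5 in Col-0 from Ler ranged from 0.12 to 0.35, OCT4 in MYB50 knockout xylem from -0.55 to -0.35, and OCT4 between MYB50 knockout tissues was called with array weights (-0.37). By Spearman's rho, 4 of the 10 most alike genes remained.

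Counts of calls moved by over 1.5 times with only the arrays compared (MYB61 knockout tissues 5388 to 3439, MYB61 knockout xylem 299 to 39, its cork 1274 to 230, abi1 1661 to 1020), with array weights (abi1 3220, aba1 4317 to 6891), and with the background covariate (MYB61 knockout cork 489). They did so too without Col-0 xylem replicate 3 (193) or MYB61 knockout xylem replicate 2 (174), Col-0 cork replicate 1 or 2 (780 and 774), and Ler hypocotyl replicate 2 or 3 or abi1 hypocotyl replicate 2 (1102, 1066 and 940). The OCT1 values under 16 are limited by signal near the floor.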
